A study of Mus musculus with 6 samples.

Results

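Gpr62 and a set of 4 other G protein-coupled receptors of oligodendrocytes (Gpr37, S1pr5, Lpar1 and Adgrg1) were described in hippocampal RNA of WT mice and of knock-in (TG) mice. Their rows were taken from the deposited gene table by symbol, which gave 5 genes of 54532, and all 5 were among the 20952 genes with a mean level high enough to test. Gpr62 was chosen by its measured FPKM, selected on lower values in all 3 TG libraries than in all 3 WT libraries, so that difference is given as a description with no test. The other receptors were listed by name. The data are RNA-seq values of whole hippocampal tissue from 3 WT mice and 3 TG mice, with 1 library per mouse (WT1, WT2, WT3, TG1, TG2 and TG3). Lists of 3 values below keep that order of numbers. The TG mice carry the epilepsy-linked changes G82R and L85P in Slc1a2, which encodes the glutamate transporter GLT-1. The changes were placed in the gene by CRISPR/Cas9 knock-in in fertilized C57BL/6N eggs, so every cell type can carry them, and the WT mice were littermates. Age and zygosity of the sequenced mice are not given in the sources used here. The comparison asks how the hippocampal transcriptome of the knock-in mice differs from that of WT mice.

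Oligodendrocytes wrap axons in myelin, and G protein-coupled receptors on their surface take part in setting when precursor cells stop dividing, mature and ensheath axons. Gpr62 is an orphan receptor of the rhodopsin class that is enriched in mature oligodendrocytes. Gpr37, also without an agreed ligand, restrains oligodendrocyte maturation, and peptides from prosaposin have been proposed to bind it. S1pr5 is the sphingosine-1-phosphate receptor typical of mature oligodendrocytes, and Lpar1 is the main lysophosphatidic acid receptor of the lineage. Adgrg1, also called GPR56, is an adhesion receptor that signals through G12/13 proteins and RhoA and keeps precursor cells dividing, and it is made by astrocytes, microglia and neural progenitors as well.

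The genes were placed in GRCm38 by the coordinates of the deposited table. Gpr62 (ENSMUSG00000091735) lies on the minus strand of chromosome 9 from 106463962 to 106465938, with 1 annotated transcript of 1 exon. S1pr5 (ENSMUSG00000045087) lies on the same chromosome from 21242912 to 21248443, also on the minus strand. Gpr37 (ENSMUSG00000039904) lies on chromosome 6 from 25665878 to 25690729, Lpar1 (ENSMUSG00000038668) on chromosome 4 from 58435255 to 58553898, and Adgrg1 (ENSMUSG00000031785) on chromosome 8 from 94974751 to 95014217. The most exons in any annotated transcript were 3 for S1pr5 and Gpr37, 4 for Lpar1 and 15 for Adgrg1.

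The promoter windows of the receptors in RefSeq (GRCm38.p6, 250 bases before to 50 after each start) were searched on both strands for CTGGCAC and CTGGTAC, the letters bound by MYRF, the transcription factor that switches on myelin genes. Of the 5 receptors, 4 held a match (Gpr62, S1pr5, Lpar1 and Adgrg1), whereas 8.10% of all 27025 genes with a window did. Lpar1 has 3 windows and Adgrg1 has 2, and the other receptors have 1 each. The 250 bases upstream of the Gpr62 start are shown because Gpr62 was the receptor picked for its lower TG values, and 30 bases around the match are shown for the others. Capitals mark the MYRF letters, and in S1pr5 the match on each strand overlaps the other.
Gpr62, chr9:106465986-106466235, minus strand: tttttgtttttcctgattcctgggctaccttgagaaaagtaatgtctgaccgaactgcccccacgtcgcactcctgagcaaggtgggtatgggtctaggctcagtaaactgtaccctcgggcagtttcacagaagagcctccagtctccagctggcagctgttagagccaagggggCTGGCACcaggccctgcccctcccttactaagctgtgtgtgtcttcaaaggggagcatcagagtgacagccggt
S1pr5, chr9:21248594-21248623, minus strand: gctaggacttgCTGGTACCAGtcgccgctg
Lpar1, chr4:58553600-58553629, minus strand: aggtaaggaggCTGGCACccgtgcctcttc
Adgrg1, chr8:94984190-94984219, plus strand: catttttgaaaCTGGCACcagggtctggga
Counted from the start, the match begins at position -74 in Gpr62, -169 in S1pr5, -127 in Lpar1 and -198 in Adgrg1. The letters ACAAAG, a core of SOX factor sites, were found in windows of Lpar1 and Adgrg1, and in 18.7% of all 32851 windows. The E-box CAGCTG was found in Gpr62 alone among the receptors, and in 16.3% of all windows. These are matches of letters in fixed windows, and no binding was measured. Myrf itself had an FPKM of 6.96, 7.54 and 4.95 (WT) against 5.82, 6.83 and 7.22 (TG), with overlapping groups.

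The deposited values are FPKM, reads scaled by gene length and by the reads of the library. The length used was 6068 bases for Gpr37, 5421 for Adgrg1 and 4289 for Lpar1. The longest annotated transcripts of these genes have 4974, 3616 and 3543 bases, so levels of different genes depend on the length used. The reads behind each value were recovered from the steps of FPKM times gene length, and the reads on genes ranged from 16081281 to 18751057 per library. Markers of the hippocampus (8 of 8 genes, among them Prox1, Wfs1 and Neurod6) were above 0 in every library, with a summed FPKM of 251 to 291 in WT and 248 to 275 in TG libraries. In 1 of the 8, Calb1, every TG library lay below every WT library, as in 5.71% of all genes tested. Its mean FPKM was 29.5 for WT against 23.6 for TG mice (log2 difference -0.31, adjusted p = 0.786 in limma). All 6 libraries had the transcripts of male mice, with a Ddx3y FPKM of 10.6 to 12.3 and a Xist FPKM of at most 0.0181. Slc1a2 had an FPKM of 177 to 202 in WT and 207 to 222 in TG libraries, and FPKM do not hold the bases that mark the knock-in. TG1 and TG2 stood apart by transcripts of choroid plexus, which secretes the fluid of the brain ventricles. Its 10 markers summed to 57.6 to 82.1 FPKM in the WT libraries and 65.6 in TG3, but to 1212 in TG1 and 3836 in TG2, or 0.443% and 1.39% of all FPKM of these libraries. None of these markers was at 0 in any library. The differences of the receptors are therefore also given without them. In bulk tissue, fewer cells of a type and less RNA per cell cannot be told apart.

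Gpr62 transcripts were lower in TG mice by a similar amount in each animal. WT libraries had a Gpr62 FPKM of 8.84, 8.58 and 9.24, against 6.71, 6.74 and 6.53 for TG libraries. The lowest WT library lay 1.84 FPKM above the highest TG library, so the groups did not overlap, which is how the gene was chosen. The mean was 8.89 ± 0.332 (SD, n = 3) in WT against 6.66 ± 0.118 (SD, n = 3) in TG mice, 2.23 FPKM lower, and the log2 difference was -0.41. Over all genes tested, every TG library lay below every WT library in 5.71%. Of the 5 receptors, only Gpr62 showed this order in these libraries, and it was chosen for it. Of the 4 receptors listed by name, Gpr37, S1pr5 and Lpar1 had a log2 difference below 0, as had 50.4% of all genes tested. The direction of Gpr62 was set by its choice. Without TG1 the log2 difference of Gpr62 was -0.42, and with TG3 as the only TG library it was -0.44.

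**Figure D1:**
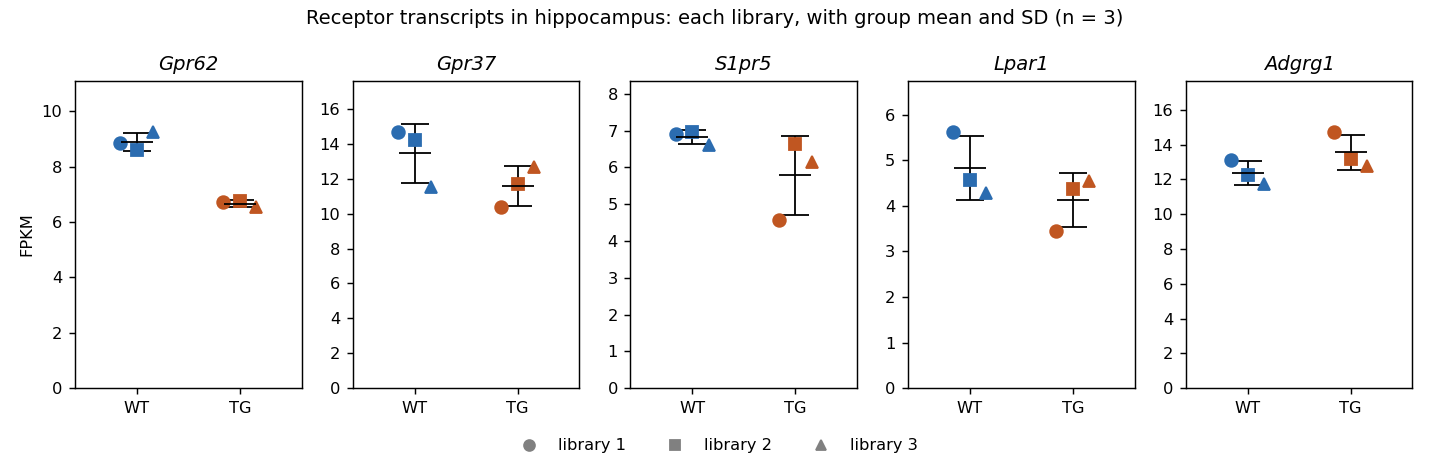
FPKM of the 5 receptors in each library, from 0, with WT on the left and TG on the right of each panel. Symbols are libraries 1 to 3, horizontal lines the group mean and error bars the SD (n = 3). The TG libraries sit between 6.53 and 6.74 for Gpr62, all below the WT libraries, whereas the groups overlap for the other receptors.

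The Gpr62 values rest on few reads. They were 323, 274 and 342 reads (WT) against 210, 239 and 233 reads (TG). The exact 95% Poisson interval, which covers counting error only, ran from 7.59 to 9.66 FPKM for WT2, the lowest WT library. For TG2, the highest TG library, it ran from 5.92 to 7.65 FPKM, so the intervals of these neighbouring libraries met. The coefficient of variation of Gpr62 was 3.74% within WT and 1.77% within TG libraries, while counting this many reads gives 5.65% and 6.63%. The replicates of Gpr62 thus lay closer together than the spread that counting alone gives, and the order of the 3 TG libraries among themselves was not resolved at this depth. S1pr5 showed the same in the WT libraries (2.88% against 5.74%) but not in the TG libraries (18.6% against 6.30%). For Gpr37, Lpar1 and Adgrg1 the spread was above the counting error in both groups. Gpr62 was chosen for groups that do not overlap, which favours replicates that lie close together. Its spread is therefore a description and not a test beside the other receptors.

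**Figure D2:**
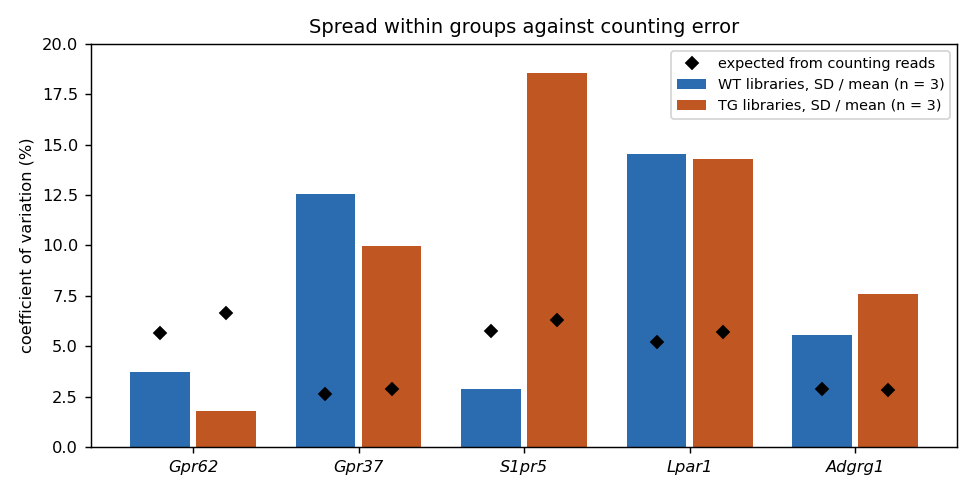
Coefficient of variation (SD divided by mean, in percent) of each receptor within the WT and TG libraries as bars (n = 3), with the value expected from counting reads as black diamonds. The bars of Gpr62 lie below their diamonds, at 3.74% and 1.77%, and the TG bar of S1pr5 is the highest at 18.6%. Gpr62 was chosen by these values.

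The end of Gpr62 overlaps that of Pcbp4, a gene for an RNA-binding protein on the opposite strand, by 51 bases. Whether counting used strand is not stated, so reads in this stretch could be given to either gene. Of the 1928 stretches of 50 bases in the Gpr62 transcript, 2 (0.104%) occur in another gene's transcript on either strand, and that gene is Pcbp4. Pcbp4 had an FPKM of 33.3 ± 1.74 for WT against 32.5 ± 1.02 for TG mice (SD, n = 3 each), and its log2 difference was -0.04 (standard error 0.0671, adjusted p = 0.900 in limma). Within 25 kb of Gpr62 there were 6 other genes, of which 5 were tested and none had an unadjusted p under 0.05 in limma, where 5.91% of all genes did. Parp3, a poly(ADP-ribose) polymerase gene upstream of Gpr62 on the same strand, had an FPKM of 0.874 ± 0.177 for WT against 1.19 ± 0.134 for TG mice (SD, n = 3 each), a log2 difference of 0.42 (standard error 0.198, adjusted p = 0.786 in limma), and 0.48 with TG3 as the only TG library. Abhd14a, Abhd14b and Rrp9 had log2 differences of -0.18, 0.02 and -0.04. Gm28959 was listed at 0 in all libraries.

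**Figure D3:**
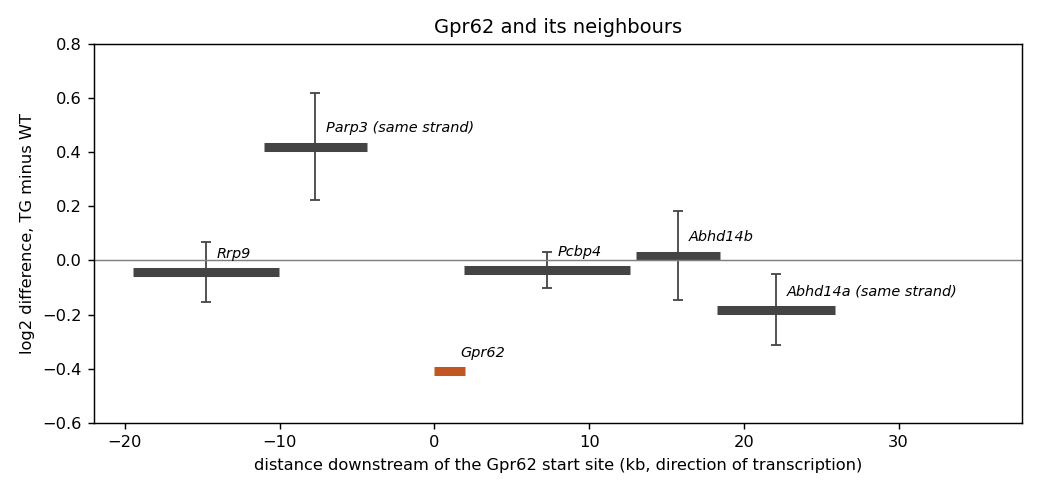
Log2 difference (TG minus WT, n = 3 each) of Gpr62 and the tested genes within 25 kb, drawn as bars over their extent in kb from the Gpr62 start site along its direction of transcription. Error bars are standard errors and Gpr62 has none because its difference was not tested. Gpr62 lies lowest at -0.41, and Pcbp4, which overlaps its end, lies at -0.04.

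Gpr37 had an FPKM of 14.7, 14.2 and 11.5 (WT) against 10.4, 11.7 and 12.7 (TG). WT3 lay below TG2 and TG3, so the groups overlapped, and TG1 was the lowest library. The mean was 13.5 ± 1.69 for WT against 11.6 ± 1.15 for TG mice (SD, n = 3 each). The log2 difference was -0.21, with a 95% confidence interval from -0.49 to 0.06 and an adjusted p of 0.789 in limma, so no difference was shown. It was -0.13 without TG1 and -0.32 without WT3. These values rest on 998 to 1646 reads per library, and 0.956% of the 50-base stretches of Gpr37 transcripts occur in other genes.

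S1pr5 had an FPKM of 6.92, 6.96 and 6.60 (WT) against 4.58, 6.63 and 6.16 (TG). TG1 alone was far below the others, while TG2 lay just above WT3. The mean was 6.83 ± 0.197 for WT against 5.79 ± 1.07 for TG mice (SD, n = 3 each). The log2 difference was -0.25 (95% confidence interval -0.58 to 0.07, adjusted p = 0.789 in limma), and it was -0.09 without TG1.

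Lpar1 had an FPKM of 5.61, 4.56 and 4.28 (WT) against 3.45, 4.37 and 4.54 (TG). WT1 was the highest and TG1 the lowest library, and the other libraries lay together whichever group they came from. The mean was 4.82 ± 0.700 for WT against 4.12 ± 0.589 for TG mice (SD, n = 3 each), a log2 difference of -0.22 (95% confidence interval -0.56 to 0.12, adjusted p = 0.789 in limma). It was -0.10 without TG1 and -0.11 without WT1.

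Among the receptors, Adgrg1 alone had a log2 difference above 0. Its FPKM was 13.1, 12.2 and 11.7 (WT) against 14.7, 13.2 and 12.8 (TG), with TG1 the highest library and TG3 below WT1. The mean was 12.4 ± 0.689 for WT against 13.5 ± 1.03 for TG mice (SD, n = 3 each), a log2 difference of 0.13 (95% confidence interval -0.06 to 0.32, adjusted p = 0.789 in limma). Without TG1 it was 0.07. None of the 4 receptors listed by name had an unadjusted p under 0.05 in limma, where 2.78% of all genes tested were lower and 3.13% higher in TG mice at that threshold. Leaving out WT3 brought Gpr37 under it (unadjusted p = 0.0188, adjusted p = 0.984 in limma), and leaving out TG2 did so for S1pr5 (unadjusted p = 0.049, adjusted p = 0.798 in limma). In these fits 429 and 557 of the 20952 genes were lower at that threshold. With TG3 as the only TG library the log2 differences were -0.08 for Gpr37, -0.15 for S1pr5, -0.07 for Lpar1 and 0.05 for Adgrg1. After Benjamini-Hochberg adjustment 0.00955% of all genes were called in either direction.

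By the deposited FPKM, the levels in WT mice fell in the order Gpr37, Adgrg1, Gpr62, S1pr5 and Lpar1. This order and that in TG mice hold for the gene lengths used in the FPKM, and other lengths were not tried. Gpr37 and Adgrg1 overlapped in the WT libraries, and each of the other neighbours in this order was apart. In TG mice Adgrg1 came before Gpr37, with 12.8 FPKM in its lowest library against 12.7 in the highest of Gpr37. Gpr62 and S1pr5 overlapped in the TG libraries, from 6.53 to 6.74 FPKM for Gpr62 and from 4.58 to 6.63 FPKM for S1pr5.

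The receptors were then set beside markers of the cell types that could hold them. The 28 genes of mature oligodendrocytes, which include the myelin genes Mbp and Mog, had a median log2 difference of -0.29 between the groups, where the median over all genes tested was -0.00197. Of these genes 27 were below 0, where 50.4% of all genes were. At an unadjusted p under 0.05, 5 of them were lower in TG mice (Opalin, Tspan2, Omg, Nkx6-2 and Mal), where 2.78% of all genes were, and the smallest adjusted p was 0.786. None was at 0 in any library. In 7 of the 28, Omg and Tspan2 among them, every TG library lay below every WT library, as for Gpr62, where 5.71% of all genes did. Without TG1 the log2 difference of Omg went from -0.28 to -0.25 and that of Tspan2 from -0.33 to -0.22. The median of this list against the WT mean was 0.12, 0.05 and -0.14 (WT) against -0.60, -0.17 and -0.10 (TG), so TG1 was far below the rest and TG3 lay within the WT range. Its summed FPKM was 963 to 1141 in WT and 742 to 1048 in TG libraries. Without TG1 the median log2 difference of the list was -0.13, and it was -0.10 with TG3 as the only TG library. Opalin alone was lower at an unadjusted p under 0.05 in limma without TG1, where 1.94% of all genes were. Gpr37, S1pr5 and Lpar1 were lowest in TG1 as well. The 12 genes of precursor and newly formed cells had a median of -0.01 (-0.03 without TG1) and the 10 astrocyte genes a median of 0.02 (0.03 without TG1).

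**Figure D4:**
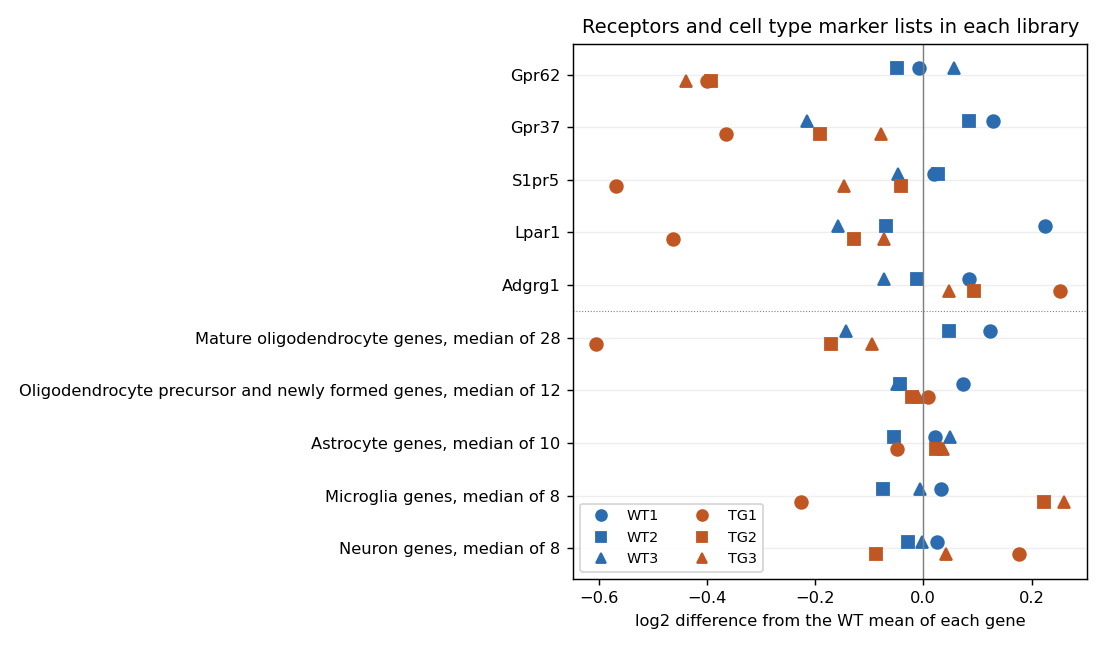
Log2 difference of each library from the WT mean for the 5 receptors (upper rows) and the median of marker lists (lower rows), with WT libraries in blue and TG libraries in orange and a symbol for each library number. TG1 stands at -0.60 for the mature oligodendrocyte genes and is the lowest library for Gpr37, S1pr5 and Lpar1, while for Gpr62 all 3 TG libraries lie between -0.44 and -0.39.

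Relative to the median of the mature oligodendrocyte genes in the same library, Gpr62 stood at -0.13, -0.10 and 0.20 (WT) against 0.21, -0.22 and -0.34 (TG) on the log2 scale. TG1 thus lay just above the highest WT library and TG2 and TG3 lay below every WT library. On this scale Gpr37 ranged from -0.07 to 0.04 in WT and from -0.02 to 0.24 in TG libraries, S1pr5 from -0.10 to 0.10 and from -0.05 to 0.13, and Lpar1 from -0.11 to 0.10 and from 0.02 to 0.14, and the groups of each overlapped. Adgrg1 stood at 0.86, 0.26 and 0.14 in TG1 to TG3, above its WT range of -0.06 to 0.07. The subtracted list median was -0.60, -0.17 and -0.10 in TG1 to TG3, so a gene without any change would also rise in these libraries on this scale. By FPKM alone the Adgrg1 groups overlapped. In a fit with the list's median as a covariate, an alternative chosen after seeing the data, the log2 difference between the groups was -0.01 for Gpr37, -0.0064 for S1pr5, 0.04 for Lpar1 and 0.07 for Adgrg1. The adjusted p of these 4 receptors was between 0.896 and 0.991 in this limma fit. The Gpr62 values here are those it was chosen by, and the part of oligodendrocyte content in the values of the receptors was not tested.

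Relatives of the receptors came next. Of 15 close relatives, 14 were tested, none had an unadjusted p under 0.05, no relative separated the groups, and their median log2 difference was -0.03, which turned to 0.03 without TG1 and was 0.0075 with TG3 as the only TG library. Gpr37l1, the astrocyte relative of Gpr37 which led the list in level, had an FPKM of 86.2, 85.9 and 93.9 (WT) against 85.4, 84.2 and 87.2 (TG). Gpr61, a receptor close to Gpr62, had an FPKM of 4.80, 4.65 and 4.55 (WT) against 4.56, 4.51 and 4.69 (TG). S1pr1, the sphingosine-1-phosphate receptor of astrocytes and endothelium, ranged from 39.3 to 41.4 FPKM over all 6 libraries.

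Of 18 genes for ligands of the receptors or for enzymes and carriers that make, move or break down these ligands, 17 were tested and 1 was higher in the TG group with an unadjusted p under 0.05, a share near the 3.13% of all genes. This was Enpp2, which encodes autotaxin, the enzyme that makes lysophosphatidic acid outside cells and is abundant in choroid plexus as well as in oligodendrocytes. Its FPKM was 29.1, 24.9 and 22.2 (WT) against 124, 351 and 26.3 (TG), so it was high in the libraries with high choroid plexus markers, and TG3 lay within the WT range (log2 difference 2.05, standard error 0.811, adjusted p = 0.786 in limma). The part of choroid plexus in the Enpp2 value was not tested. Without TG1 no gene of this list had an unadjusted p under 0.05, and the log2 difference of Enpp2 was 1.92. With TG3 as the only TG library it was 0.06, and the log2 difference of Liph, a phospholipase gene of the list, was 0.77, against 0.23 with all libraries. Psap, which encodes prosaposin and was the most abundant of the list, ranged from 535 to 610.0 FPKM in WT and from 545 to 654 FPKM in TG libraries. The list had a median log2 difference of 0.12, and 0.06 with TG3 as the only TG library.

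Of 20 genes for G proteins and effectors, all 20 were tested and none had an unadjusted p under 0.05. In 3 of them, Gna13, Gna11 and Arhgef11, all TG libraries lay above all WT libraries, where 6.35% of all genes did. The gap was small for Gna11 (42.64 FPKM in TG3 against 42.56 in WT1) and for Arhgef11 (11.34 in TG2 against 11.18 in WT1). WT3 was the lowest library of both, at 36.5 and 7.72 FPKM. Gna13, a G protein through which Adgrg1 signals, had a mean FPKM of 11.3 ± 0.127 for WT against 12.5 ± 0.436 for TG mice (SD, n = 3 each), a log2 difference of 0.14 (standard error 0.0646, adjusted p = 0.786 in limma), and 0.08 with TG3 as the only TG library. The log2 difference of Gna11 was 0.15, and 0.09 without TG1. Rapgef4, a cAMP-activated exchange factor with the highest mean of the list over the 6 libraries, ranged from 73.7 to 82.6 FPKM over the 6 libraries. Rhoa had a log2 difference of -0.06.

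Of 14 other receptors described in the oligodendrocyte lineage, many of which neurons also express, 13 were tested and 1 had an unadjusted p under 0.05, near the share of all genes. This was Gpr17, a receptor of precursors that are about to mature, with an FPKM of 6.97, 5.15 and 4.41 (WT) against 7.42, 7.69 and 6.80 (TG). It was higher in TG mice by 0.42 on the log2 scale (standard error 0.162, adjusted p = 0.786 in limma), and WT1 lay above TG3. Without TG1 its log2 difference was 0.41 with an unadjusted p no longer under 0.05, and with TG3 as the only TG library it was 0.32. Without TG1 Cnr1, a cannabinoid receptor gene, was lower by an unadjusted p under 0.05, where 1.94% of all genes were. Its log2 difference was then -0.16 (adjusted p = 0.898 in limma), against -0.07 with all libraries. Gprc5b, with the highest mean of the list over the 6 libraries, had a log2 difference of 0.02.

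**Figure D5:**
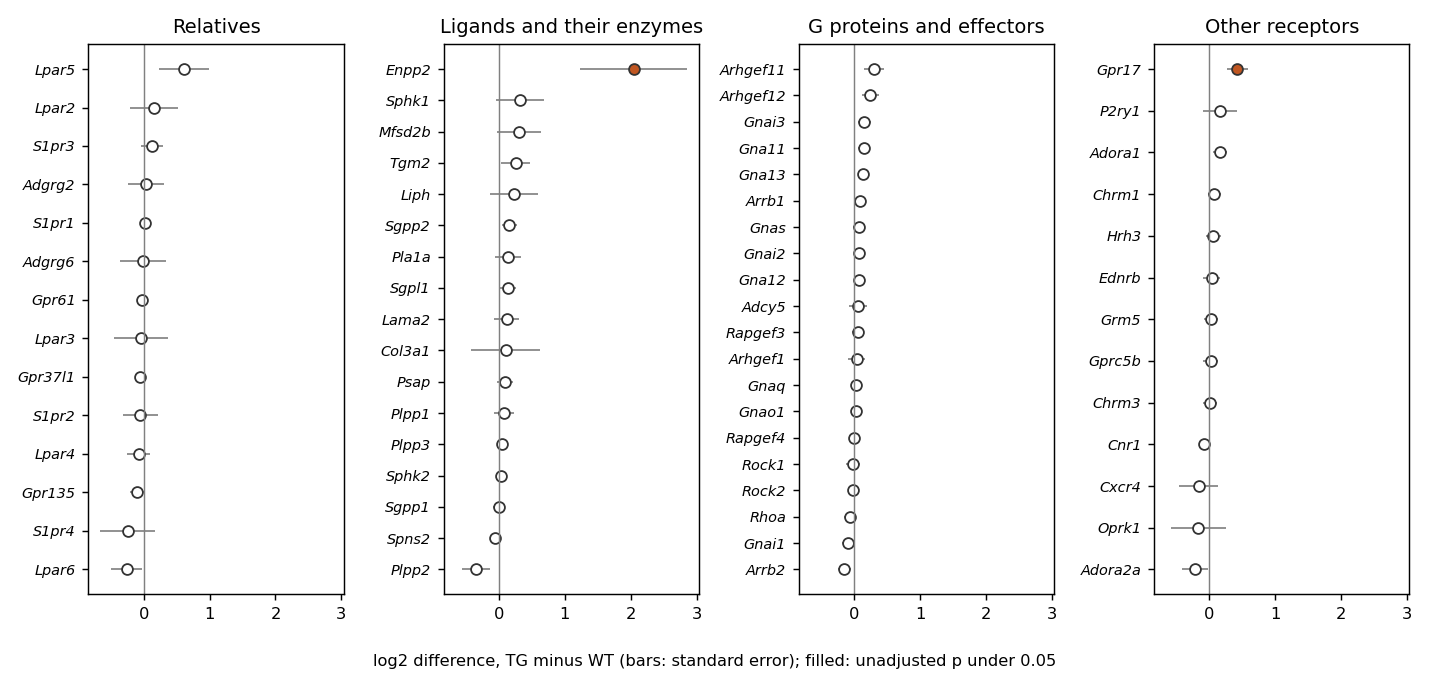
Log2 difference (TG minus WT, n = 3 each) with standard error for every tested relative of the receptors, gene of their ligands and ligand enzymes, G protein or effector and other receptor of the lineage. Filled points have an unadjusted p under 0.05, and only Enpp2 at 2.05 and Gpr17 at 0.42 are filled.

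The genes whose pattern over the 6 libraries was most like that of each receptor were ranked by Pearson's r of log2(FPKM + 0.1) among 11916 other protein-coding genes whose mean FPKM reached 1, and r is a description of these libraries. For Gpr62 the first were 3110040N11Rik (r = 0.991), C8g (0.991), Krr1 (0.988), Zap70 (0.987) and Cfap20 (0.983), none of which is among the genes listed here. The order of the groups in Gpr62 was fixed by its choice, so its ranking describes the values it was chosen by. C8g, for example, had an FPKM of 1.30, 1.16 and 1.47 (WT) against 0.762, 0.822 and 0.742 (TG). For Gpr37 the first was Tmem88b (r = 0.986), for S1pr5 Mks1 (0.991), for Lpar1 Cenpx (0.983) and for Adgrg1 Larp1 (0.992). Of the 28 mature oligodendrocyte genes, 25 were within the top 10% of the ranking for Gpr37, 24 for S1pr5, 24 for Lpar1 and 0 for Adgrg1. For Gpr62, 6 of the 28 were, with a median r of 0.55 over these genes, again by the values it was chosen by. All of these rankings share the same 6 libraries, of which TG1 was the lowest for Gpr37, S1pr5 and Lpar1 and the highest for Adgrg1.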

How the data were processed

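Hippocampal RNA of 3 WT and 3 TG mice was sequenced, with 1 library per mouse. HTSeq was used by the authors for gene-level read counting, and the deposited values are FPKM derived from these counts and gene length, given separately for each library. The aligner is not given in the sources used here, and the submitters' processing notes name GRCm38 and mm10. Of the gene identifiers, 54409 were found in GENCODE M21, 53499 with the same start and end. Kits differ between sources (Trizol and NEBNext in the methods, RNeasy and SMARTer in the labels). No strand setting is stated.

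Reads were recovered as FPKM times gene length over the smallest step of each library, and 100% of values were whole (tolerance 0.05 reads). Genes whose mean FPKM reached 0.1 were compared on log2(FPKM + 0.1), a scale that understates changes of low genes, with limma 3.58.1 in R 4.3.3 (lmFit, and eBayes with trend). The test was two-sided, with no covariate or block and with Benjamini-Hochberg adjustment over all 20952 genes at a threshold of 0.05. Adjusted p-values come from this fit, except where a library left out, a covariate or another alternative is named. On a 1 kb gene, 3 reads amount to 0.160 to 0.190 FPKM, depending on the library. The fit was tested on simulated data first.

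The receptors and gene lists were chosen with earlier results of these data known. Genes named are the 5 receptors, the genes within 25 kb of Gpr62, the genes of each pathway list with an unadjusted p under 0.05 or the highest mean FPKM, the genes most like each receptor over the libraries, and members of marker lists that move with a receptor. Gpr61, S1pr1, Gna13, Gna11, Arhgef11, Rhoa, Myrf, Liph, Cnr1 and the marker genes named were named after their values were seen. Alternatives were other pseudocounts, filters, scalings and variance models, limma-voom on the recovered reads, protein-coding genes alone, each library left out and the replicate number as a block. Covariates and the loss of both TG1 and TG2 were added after seeing the data.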

Additional observations from a re-analysis of the deposited data

How the results depend on the processing

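The log2 difference of Gpr62 stayed between -0.44 and -0.37 under all 19 alternatives, and the value farthest from -0.41 was -0.37 with a pseudocount of 1. Gpr62 was chosen for lower values in every TG library, so leaving out a library could not turn its direction. Its range describes the values it was chosen by and is not a test beside the ranges of the other receptors. Leaving out each library gave -0.43 to -0.38 for Gpr62, -0.32 to -0.13 for Gpr37, -0.36 to -0.09 for S1pr5, -0.30 to -0.10 for Lpar1 and 0.07 to 0.17 for Adgrg1. No alternative gave Gpr37, S1pr5, Lpar1 or Adgrg1 an adjusted p under 0.05 in limma. Lpar1 alone turned in direction, to 0.035 with the mature oligodendrocyte score as a covariate, and the cause was not tested. The genes called at an adjusted p under 0.05 in limma numbered 2, and 0 with a pseudocount of 0.01 or 1, with no filter, among protein-coding genes, with voom, without TG1 and TG2 and with either covariate. They numbered 1 where the mean FPKM had to reach 1, 9 without the trend and 0 to 6 with a library left out (6 without TG1). By unadjusted p under 0.05 there were 656 higher and 582 lower genes, over the alternatives 344 to 813 and 368 to 730, and the choroid plexus covariate gave 344 and 368. With the replicate number as a block, 0 genes were called at an adjusted p under 0.05, with 634 higher and 610 lower at an unadjusted p under 0.05. The block is balanced, so it cannot move a group difference, and it changed the call of none of these 4. The deviations of same-numbered WT and TG libraries correlated at 0.00314 to 0.0434, so the numbers were not taken as pairs. With 210 to 342 reads, Gpr62 is limited by counting.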

Other observations

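Other cell types gave the following values, none with an adjusted p under 0.05 in limma. Of 8 microglia genes, 2 (Trem2 and Csf1r) were higher in the TG group by an unadjusted p under 0.05, where 3.13% of all genes were, and the median log2 difference was 0.12. Without TG1 that median was 0.25 and 4 microglia genes passed, where 2.52% of all genes did, and with TG3 as the only TG library the median was 0.26. Of 8 genes of endothelium, 2 were higher, against the same 3.13% of all genes, with a median of 0.09. Without TG1 neither passed, and the log2 difference of Flt1 was 0.21 (0.24 with all libraries) and that of Slco1c1 was 0.55 (0.46 with all libraries). With TG3 as the only TG library they were 0.28 for Flt1 and 0.18 for Slco1c1. The Slco1c1 FPKM was 17.5 in TG2, against 11.2 in TG1 and 10.4 in TG3. The 8 neuron genes had a median of 0.04 with none at that threshold, and it turned to -0.02 without TG1. The 8 meningeal fibroblast genes had a median of 0.32 with none at that threshold, 0.185 without TG1 and 0.61 with TG3 as the only TG library.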
